A study of Homo sapiens with 8 samples.

Results

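Lysosome and autophagy genes were followed across 8 poly(A) RNA-seq libraries of SK-Hep1, an established human cell line from a liver adenocarcinoma. The set holds 31 genes of the 28278 named in the count table. It was fixed as a list of lysosomal enzymes, lysosomal membrane proteins, the MiT/TFE transcription factors and autophagy genes, and all 31 passed the filter on low counts. The list was drawn up with the drop of GPNMB and SQSTM1 under endotrophin already known, so the values of these genes in that comparison are given as a description. GPNMB passed the filter only through the groups in which it was detected.

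The 4 groups held 2 libraries each. The first was sorafenib-resistant (SR) cells with COL6A3 siRNA and added recombinant human endotrophin (siCOL6A3 + rhETP). The second was resistant cells with COL6A3 siRNA alone (siCOL6A3), the third was resistant cells with control siRNA (SR siCtrl), and the last was sorafenib-sensitive (SS) cells with control siRNA (SS siCtrl). Sorafenib, a multikinase inhibitor, is given to patients with advanced liver cancer, COL6A3 encodes a chain of collagen VI, and endotrophin is the C-terminal fragment released from that chain. The labels name a single sensitive and a single resistant population, so resistance and any other difference between these populations cannot be told apart. How the endotrophin was dosed, and whether sorafenib was present at harvest, is not stated in the labels. Nothing says that the 2 libraries of a group came from separate cultures, so p values measure the spread between libraries, which may be technical.

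Lysosomes are acidic organelles in which hydrolases break down proteins, glycans and lipids delivered by endocytosis and by autophagy. Autophagy encloses cytoplasm in a double membrane that carries lipid-linked LC3 and GABARAP proteins and then fuses with the lysosome. TFEB, TFE3 and MITF are related transcription factors that bind CACGTG-type elements near many lysosomal genes. They are held in the cytoplasm by mTORC1 through phosphorylation, so their activity is set largely by where the protein is and not by the amount of mRNA.

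Library totals were 30461668 to 44116043 counts, and 15684 genes were tested. Levels are given as CPM, the count of a gene scaled by library size and TMM factor, and the values of a group are listed as replicate 1 and then replicate 2. Levels of different genes are compared only in FPKM, the length-scaled values that the authors deposited. Changes are log2 fold changes with their SE. A gene is said to have risen or fallen only when edgeR's quasi-likelihood test passed a Benjamini-Hochberg adjusted p of 0.05 over all genes tested. COL6A3 mRNA was 68.6 ± 3.82 CPM in siCOL6A3 + rhETP, 43.8 ± 1.61 in siCOL6A3, 136 ± 0.857 in SR siCtrl and 18.7 ± 1.39 in SS siCtrl cells (SD, n = 2 each). It fell with siCOL6A3 against SR siCtrl by 1.63 on a log2 scale (SE 0.114). It was higher in siCOL6A3 + rhETP than in siCOL6A3 by 0.65 (SE 0.112; edgeR adjusted p = 0.000739), so these groups differ in COL6A3 mRNA as well as in added endotrophin, and the 2 cannot be told apart. The mesenchymal marker VIM had 3530 to 4110 CPM as group means. Of 6 mesenchymal markers 3 rose with siCOL6A3 against SR siCtrl, where 11.4% of all genes tested rose (22.3% called in all). COL1A1 was among the 3 and averaged 155 CPM in siCOL6A3 + rhETP, 136 in siCOL6A3, 28.2 in SR siCtrl and 10.8 in SS siCtrl cells. Endothelial markers were low and did not move together. TIE1 averaged 6.23 CPM in siCOL6A3 + rhETP, 3.23 in siCOL6A3, 8.20 in SR siCtrl and 1.54 in SS siCtrl cells, and fell with siCOL6A3 against SR siCtrl. VWF went the other way without a call, at 1.36, 1.67, 0.0648 and 0.453 CPM in the same order of groups. PECAM1, CDH5, KDR and TEK had group means of at most 0.318 CPM. The part of these shifts in the results was not tested. The hepatocyte genes ALB, APOA1 and TTR were at 0 in all libraries. The macrophage genes AIF1 and SPI1 and the melanocyte genes TYR and SOX10 were also at 0 throughout. Summed over 10 macrophage markers the level was 1.44 to 2.65 CPM in siCOL6A3 + rhETP, 0.913 to 2.15 in siCOL6A3, 0.518 to 2.02 in SR siCtrl and 0.648 to 2.9 in SS siCtrl libraries. Summed over 8 hepatocyte markers, of which SERPINA1 made up most, it was 45.8 to 49.3 CPM in siCOL6A3 + rhETP, 35.5 to 35.8 in siCOL6A3, 17.6 to 29.7 in SR siCtrl and 16 to 19 in SS siCtrl libraries, and the part of this shift in the results was not tested. In bulk RNA, fewer cells that carry an mRNA and less of it per cell cannot be told apart.

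COL6A3 silencing was followed by more mRNA for many lysosomal and autophagy genes, and added endotrophin by less mRNA for part of them. With siCOL6A3 against SR siCtrl, 13 of the 31 genes rose and 0 fell, where 11.4% of all genes tested rose and 10.9% fell (22.3% in all). The median log2 fold change was 0.26 over the 31 genes and 0.004 over all genes tested. GPNMB and SQSTM1, chosen with knowledge of values from the same siCOL6A3 libraries, are among the 13, and without them 11 of 29 rose, with a median of 0.255. With siCOL6A3 + rhETP against siCOL6A3, 0 of the 29 genes other than GPNMB and SQSTM1 rose and 6 fell, where 4.41% of all genes rose and 3.36% fell (7.77% in all). Their median was -0.245, against 0.00097 over all genes. These comparisons share the siCOL6A3 libraries, so a high value there moves them in opposite directions, and each is given with its own values.

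Measured against SR siCtrl, 10 of the 31 genes differed in siCOL6A3 + rhETP cells. Of these 7 were higher and 3 lower, where 10.1% of all genes were higher and 8.93% lower (19% in all), and the median over the 31 genes was 0.01. Without SR siCtrl replicate 1, 6 genes were called. The cathepsin genes CTSA, CTSB and CTSL, the saposin precursor PSAP, and MAP1LC3B, GABARAPL1 and LAMP2 were among the higher, and NEU1, NPC1 and MITF were the lower. Resistant control cells in turn differed from sensitive ones mostly by lower levels. With SR siCtrl against SS siCtrl, 3 of the 31 genes rose and 9 fell, where 6.52% of all genes rose and 9.3% fell (15.8% in all), with a median of -0.14. Without SR siCtrl replicate 1, 7 genes were called there. GPNMB and SQSTM1 are among the 9 genes that fell with all libraries in. Without these genes 3 of 29 rose and 7 fell, with a median of -0.113. The SR siCtrl libraries are the reference for both silenced groups and are also the group compared with SS siCtrl. A low value in them thus gives a fall against SS siCtrl and a rise with silencing. The 4 comparisons are set side by side gene by gene in the plot of fold changes.

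**Figure D1:**
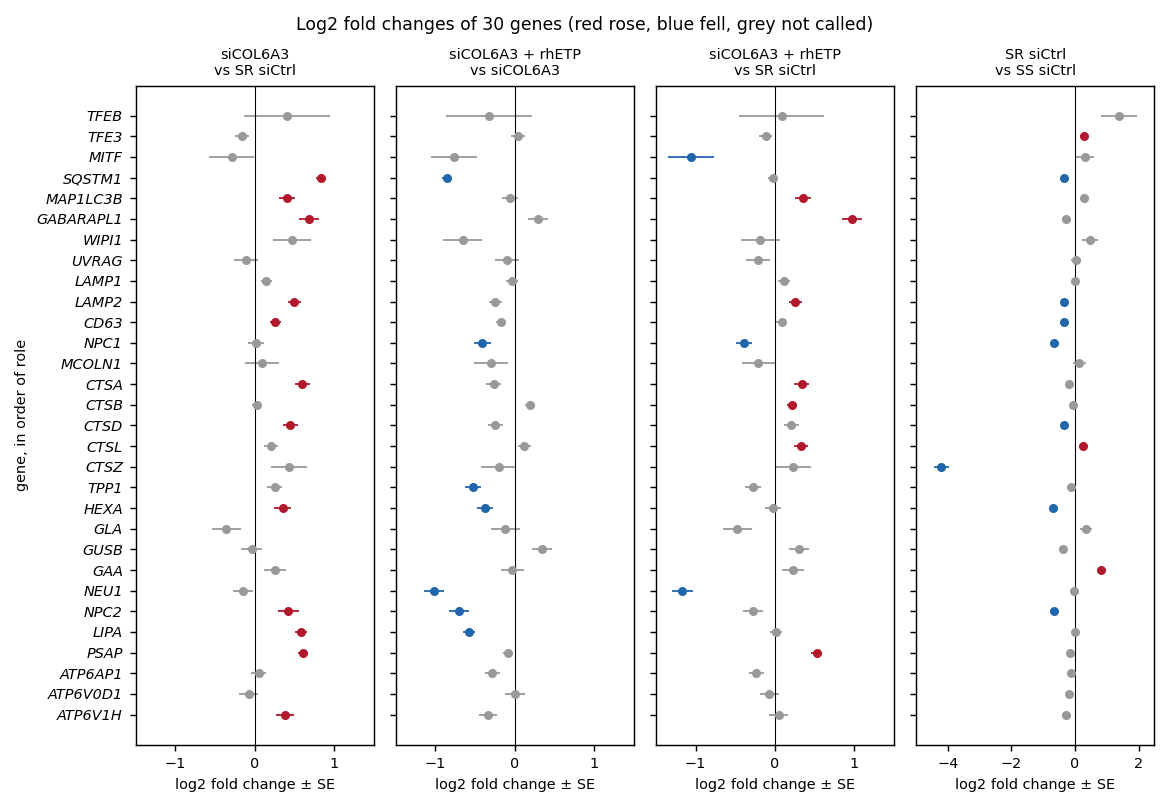
Log2 fold change (horizontal axis, with SE) of 30 of the 31 genes (rows, ordered by role) in the 4 comparisons, with red for genes that rose, blue for genes that fell and grey for genes not called. GPNMB is left out because both siCOL6A3 + rhETP libraries were at 0, and the panel for SR siCtrl against SS siCtrl has a wider axis to take in CTSZ at -4.20. In the first panel the 12 coloured genes all lie to the right of 0. SQSTM1 is among them, though its siCOL6A3 values took part in the choice of the gene.

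Among the MiT/TFE factors, TFE3 was the abundant mRNA. It had 40.3 to 51.6 FPKM over the 8 libraries, whereas TFEB had 0.436 to 2.03 FPKM and MITF 0.696 to 1.72 FPKM. TFE3 had 156 and 148 CPM in siCOL6A3 + rhETP, 146 and 149 in siCOL6A3, 167 and 163 in SR siCtrl and 138 and 135 in SS siCtrl libraries. The level was thus nearly even over the groups, highest in both SR siCtrl libraries. TFE3 rose in SR siCtrl against SS siCtrl by 0.27 (SE 0.0879; edgeR adjusted p = 0.0362), a call that was lost without any single library of these groups, at 0.26 to 0.30, and when these groups were fitted alone (adjusted p = 0.0671). Silencing moved it by -0.16 (95% interval -0.347 to 0.018), which was not called.

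TFEB mRNA was low and uneven between replicates. It had 3.87 and 3.51 CPM in siCOL6A3 + rhETP, 4.95 and 4.31 in siCOL6A3, 5.57 and 1.39 in SR siCtrl and 1.23 and 1.42 in SS siCtrl libraries. SR siCtrl replicate 2 lay at the level of the sensitive libraries and replicate 1 above all others, so no comparison with SR siCtrl separated the groups. The difference of 1.39 (SE 0.56) between SR siCtrl and SS siCtrl was not called (edgeR adjusted p = 0.102), and without SR siCtrl replicate 2 it was 2.08 and was called.

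MITF, the factor of the melanocyte and osteoclast lineages, was lowest with endotrophin. It had 4.78 and 4.42 CPM in siCOL6A3 + rhETP, 6.99 and 8.69 in siCOL6A3, 10.7 and 8.50 in SR siCtrl and 6.77 and 8.81 in SS siCtrl libraries. Both endotrophin libraries lay below every other library, while the other 3 groups overlapped. MITF fell in siCOL6A3 + rhETP against SR siCtrl by 1.06 in log2 fold change (SE 0.291; edgeR adjusted p = 0.0124). That call was lost without SR siCtrl replicate 1 (-0.88) and without siCOL6A3 + rhETP replicate 2 (-1.002). Against siCOL6A3 alone the change was -0.77 (SE 0.29) and was not called.

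**Figure D2:**
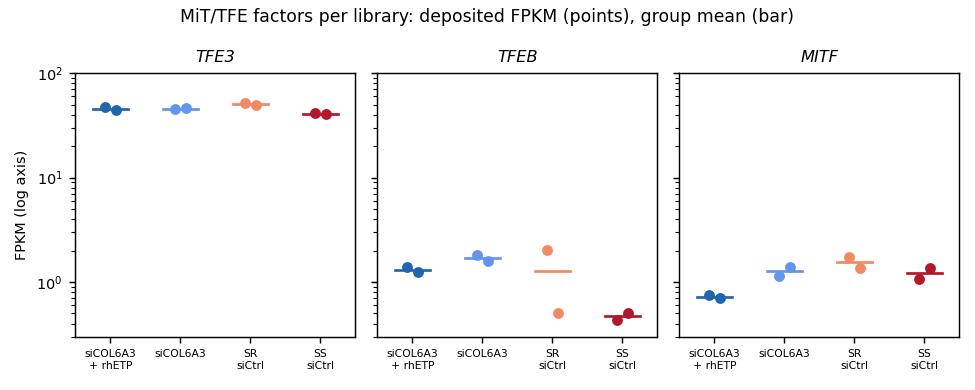
Deposited FPKM (vertical log axis) of TFE3, TFEB and MITF in each library (points) and as group mean (bar), with the groups on the horizontal axis. TFE3 lies at 40.3 to 51.6 FPKM in all libraries, above TFEB and MITF, and the SR siCtrl libraries are far apart for TFEB.

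GPNMB, a transmembrane glycoprotein whose gene is a known target of MITF, was a rare mRNA that was present in some groups and absent from another. It had 0 and 0 counts in siCOL6A3 + rhETP, 90 and 75 in siCOL6A3, 0 and 4 in SR siCtrl and 40 and 59 in SS siCtrl libraries, which is at most 2.83 CPM. The siCOL6A3 and SS siCtrl libraries were all above the SR siCtrl libraries, and the endotrophin libraries held no read. edgeR called GPNMB in siCOL6A3 against SR siCtrl and in SR siCtrl against SS siCtrl. The first is no independent test, since the siCOL6A3 values took part in the choice of the gene, and the filter let the gene pass through its high groups. The first call was lost without siCOL6A3 replicate 1 (adjusted p = 0.051). The other was lost without SS siCtrl replicate 2 (0.0577), without SR siCtrl replicate 1 (0.116), and when these groups were fitted alone (0.0905). With a floor of 3 counts per library, the level in siCOL6A3 + rhETP was at least 31.8-fold lower than in siCOL6A3. Should each read pair have been counted as 2 reads, the floor is 6 counts and the bound 15.9-fold.

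The gene lies on chromosome 7 from 23246775 to 23275108 (GRCh38). Its promoter is shown because the sequence TCATGTGA, a variant of the element bound by MITF, stands 63 bases upstream of the start. The stretch at chr7:23246525-23246824 (plus strand, RefSeq, GRCh38.p14) runs from 250 bases before to 50 bases after the start, with that element, read on this strand as its reverse complement, in capitals.
GPNMB: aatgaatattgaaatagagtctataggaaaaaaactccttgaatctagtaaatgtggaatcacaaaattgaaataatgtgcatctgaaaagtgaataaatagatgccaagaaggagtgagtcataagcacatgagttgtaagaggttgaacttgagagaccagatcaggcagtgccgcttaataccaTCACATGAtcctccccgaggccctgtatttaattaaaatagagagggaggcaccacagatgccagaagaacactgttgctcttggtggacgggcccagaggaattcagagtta

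SQSTM1 encodes p62, the receptor that carries ubiquitin-tagged cargo into autophagosomes, and was highest in cells with siCOL6A3 alone. It lies on chromosome 5 from 179806393 to 179838078. It had 662 and 681 CPM in siCOL6A3 + rhETP, 1220.1 and 1214 in siCOL6A3, 662 and 707 in SR siCtrl and 871 and 855 in SS siCtrl libraries. The siCOL6A3 libraries stood above all others, the SS siCtrl libraries came next, and the endotrophin libraries overlapped with SR siCtrl. The difference between siCOL6A3 and SR siCtrl was 0.83 (SE 0.0599), given without a test because the siCOL6A3 values took part in the choice of the gene. SQSTM1 fell in SR siCtrl against SS siCtrl by 0.33 in log2 fold change (SE 0.0596; edgeR adjusted p = 0.000337). Between siCOL6A3 + rhETP and siCOL6A3, the comparison known when the list was made, the difference was -0.86 (SE 0.0599). Against SR siCtrl it was -0.03 (95% interval -0.151 to 0.0963). Exons of SQSTM1 overlap those of MGAT4B, which had up to 5721 counts, and of MRNIP on the opposite strand. Strandedness of the counting is not stated, so reads of such overlapping genes may have been split between them.

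MAP1LC3B and GABARAPL1 were higher in silenced cells with or without endotrophin. MAP1LC3B, which encodes the LC3B protein of the autophagosome membrane, had 139.9 and 135 CPM in siCOL6A3 + rhETP, 149 and 138 in siCOL6A3, 110.0 and 106 in SR siCtrl and 82.1 and 95.1 in SS siCtrl libraries. GABARAPL1, a relative of LC3B, had 91.0 and 87.7 CPM in siCOL6A3 + rhETP, 69.8 and 76.3 in siCOL6A3, 39.5 and 51.6 in SR siCtrl and 52.8 and 57.3 in SS siCtrl libraries. For both genes all silenced libraries, with or without endotrophin, lay above all SR siCtrl libraries. MAP1LC3B rose with siCOL6A3 against SR siCtrl by 0.41 (SE 0.0989; edgeR adjusted p = 0.00404) and GABARAPL1 by 0.68 (SE 0.127; adjusted p = 0.000392). With siCOL6A3 + rhETP against SR siCtrl they rose by 0.35 and 0.97. The first of these calls was lost without SR siCtrl replicate 2 and without siCOL6A3 + rhETP replicate 1 (0.33 each).

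Neither LC3B nor GABARAPL1 mRNA was called in siCOL6A3 + rhETP against siCOL6A3, at -0.06 (95% interval -0.265 to 0.144) and 0.29 (0.0323 to 0.549). GABARAPL1 was at -0.27 in SR siCtrl against SS siCtrl, which was not called, but was called without SR siCtrl replicate 2 (-0.47). MAP1LC3B was at 0.29 there and was called only without SS siCtrl replicate 2 (0.40) and under some other settings. Reads of MAP1LC3B cannot be told with certainty from those of the near-identical MAP1LC3B2, which had 2.66 to 4.79 CPM as group means, and its exons overlap those of FBXO31 on the opposite strand (up to 2202 counts). WIPI1, which binds the lipid that marks forming autophagosomes, and UVRAG, a partner of Beclin-1, were called in no comparison, except WIPI1 in siCOL6A3 + rhETP against siCOL6A3 when these groups were fitted alone (-0.66, adjusted p = 0.0456). WIPI1 had 10.1 and 10.1 CPM in siCOL6A3 + rhETP, 18.1 and 13.8 in siCOL6A3, 9.13 and 13.9 in SR siCtrl and 7.86 and 8.78 in SS siCtrl libraries. UVRAG stayed between 24.8 and 30.1 CPM in all libraries.

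Genes of the lysosomal membrane were split. LAMP2, a main glycoprotein of that membrane, had 218 and 236 CPM in siCOL6A3 + rhETP, 265 and 273 in siCOL6A3, 185 and 196 in SR siCtrl and 232 and 248 in SS siCtrl libraries. CD63, a tetraspanin of late endosomes and lysosomes, had 522 and 552 CPM in siCOL6A3 + rhETP, 618 and 597 in siCOL6A3, 504 and 509.7 in SR siCtrl and 652 and 644 in SS siCtrl libraries. For both, SR siCtrl was the lowest group. LAMP2 rose with siCOL6A3 against SR siCtrl by 0.50 (SE 0.0825; edgeR adjusted p = 0.000112) and CD63 by 0.26 (SE 0.0646; adjusted p = 0.00496). In SR siCtrl against SS siCtrl, LAMP2 fell by 0.34 on the log2 scale (SE 0.0825) and CD63 by 0.35 (SE 0.0647; adjusted p = 0.000438). The LAMP2 call was lost there without SS siCtrl replicate 2 (-0.29) or SR siCtrl replicate 1 (-0.28).

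With endotrophin added, LAMP2 was at -0.25 (SE 0.0821) and CD63 at -0.18 (SE 0.0646) against siCOL6A3. With the settings used throughout, edgeR called neither (adjusted p = 0.0709 and 0.099), while DESeq2 called both (Benjamini-Hochberg adjusted p = 0.013 and 0.0156). Without a filter on low counts, edgeR also called LAMP2 (adjusted p = 0.0455). LAMP2 stayed above SR siCtrl by 0.25, a call lost without SR siCtrl replicate 1 (0.22) or siCOL6A3 + rhETP replicate 2 (0.20). LAMP1, the partner of LAMP2 and an abundant mRNA at 128 to 150.2 FPKM, was called in no comparison and kept to 344 to 399 CPM over all libraries.

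NPC1, the membrane protein that exports cholesterol from the lysosome, was highest in sensitive cells and lowest with endotrophin. It had 77.0 and 76.0 CPM in siCOL6A3 + rhETP, 95.9 and 107 in siCOL6A3, 94.2 and 106 in SR siCtrl and 168 and 149.5 in SS siCtrl libraries. The siCOL6A3 and SR siCtrl libraries overlapped and the other groups stood clear of them. In SR siCtrl against SS siCtrl, NPC1 fell by 0.66 in log2 fold change (SE 0.104; edgeR adjusted p = 7.48e-05). With endotrophin it fell by 0.41 against siCOL6A3 (SE 0.104; adjusted p = 0.016) and by 0.39 against SR siCtrl (SE 0.104; adjusted p = 0.00995). The call against siCOL6A3 was lost without siCOL6A3 replicate 2 (-0.34) and without either endotrophin library (-0.42 and -0.40). The call against SR siCtrl was lost without SR siCtrl replicate 2 (-0.29) or siCOL6A3 + rhETP replicate 2 (-0.38). MCOLN1, the lysosomal calcium channel TRPML1, had 12.3 to 20.3 CPM and was called in no comparison. Exons of NPC1 overlap those of RMC1 on the opposite strand (up to 655 counts), and those of MCOLN1 overlap PNPLA6 on its own strand (up to 3349 counts).

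**Figure D3:**
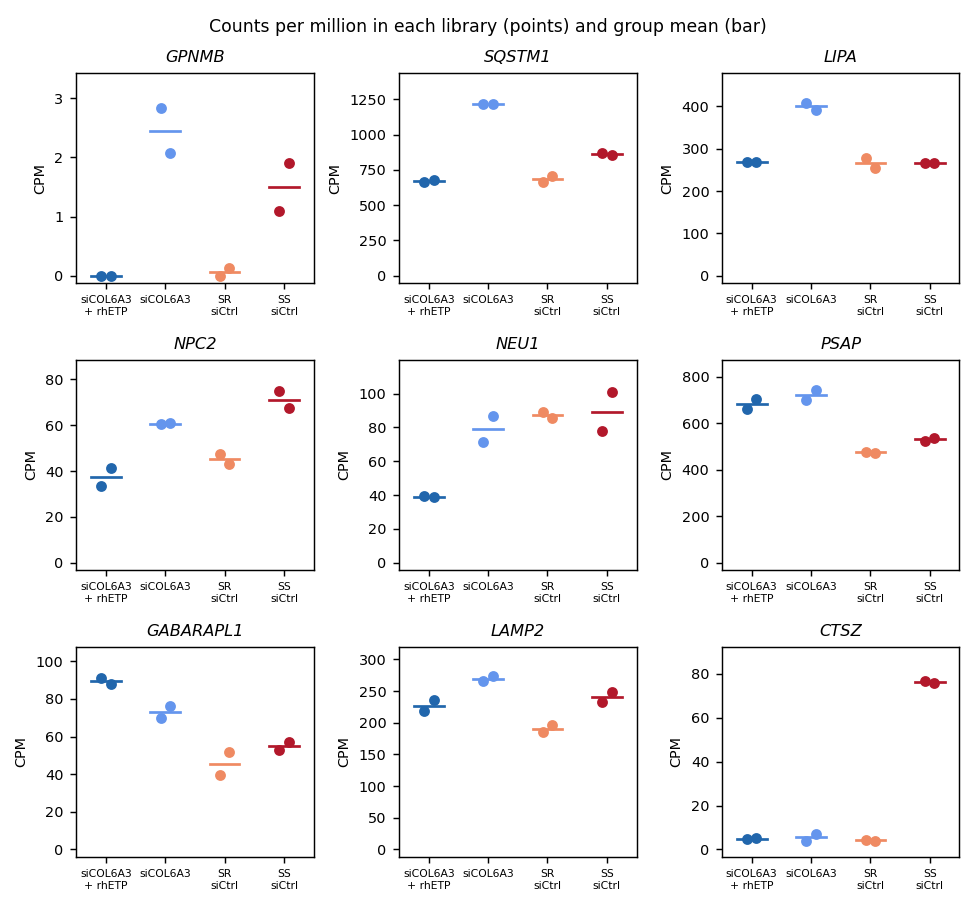
CPM (vertical axis) of 9 genes in each library (points) and as group mean (bar), with the groups on the horizontal axis. SQSTM1, LIPA and NPC2 are lower in both siCOL6A3 + rhETP libraries than in both siCOL6A3 libraries, PSAP and GABARAPL1 are higher in all silenced libraries than in both SR siCtrl libraries, NEU1 is lowest with endotrophin, and CTSZ is high only in SS siCtrl.

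CTSZ separated the cell populations most clearly. It encodes a cysteine carboxypeptidase, lies on chromosome 20 from 58995185 to 59007254, and had 4.21 and 4.08 CPM in SR siCtrl libraries and 76.6 and 76.0 in SS siCtrl libraries. CTSZ fell by 4.20 on a log2 scale (SE 0.231; edgeR adjusted p = 8.33e-12), and no other gene of the set except the rare GPNMB differed by more than 1.39 there. CTSZ stayed low in silenced cells, at 4.69 and 5.05 CPM in siCOL6A3 + rhETP and 3.97 and 7.20 in siCOL6A3 libraries. Its difference of 0.44 with siCOL6A3 against SR siCtrl was not called, but was called at 0.81 without siCOL6A3 replicate 1.

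CTSA, the serine carboxypeptidase that also protects neuraminidase, and CTSD, the main aspartic protease of the lysosome, rose with silencing. CTSA had 156 and 167 CPM in siCOL6A3 + rhETP, 188 and 199.9 in siCOL6A3, 118 and 138 in SR siCtrl and 147 and 143 in SS siCtrl libraries. CTSD had 178 and 194 CPM in siCOL6A3 + rhETP, 206 and 235 in siCOL6A3, 155 and 168 in SR siCtrl and 195 and 215 in SS siCtrl libraries. For CTSA and CTSD the siCOL6A3 libraries were above the SR siCtrl libraries and the endotrophin libraries lay between these groups. CTSA rose with siCOL6A3 against SR siCtrl by 0.60 (SE 0.0952; edgeR adjusted p = 7.22e-05) and CTSD by 0.45 (SE 0.0929; adjusted p = 0.00106). With endotrophin against siCOL6A3 they were at -0.27 and -0.24, which edgeR did not call (adjusted p = 0.0941 and 0.12), while DESeq2 called CTSA (adjusted p = 0.0351). CTSA stayed above SR siCtrl by 0.33, a call lost without SR siCtrl replicate 1 (0.23) or siCOL6A3 + rhETP replicate 2 (0.29). CTSD fell in SR siCtrl against SS siCtrl by 0.35 on the log2 scale, a call lost without SS siCtrl replicate 2 or SR siCtrl replicate 1 (-0.28 each).

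The cysteine proteases CTSB and CTSL were highest with endotrophin. CTSB had 933 and 895 CPM in siCOL6A3 + rhETP, 813 and 792 in siCOL6A3, 785 and 789.8 in SR siCtrl and 819 and 837 in SS siCtrl libraries. CTSL had 186 and 183 CPM in siCOL6A3 + rhETP, 175 and 164 in siCOL6A3, 144 and 149.7 in SR siCtrl and 123 and 121 in SS siCtrl libraries. For both genes the endotrophin libraries lay above every other library. Against SR siCtrl, CTSB rose by 0.21 (SE 0.059; edgeR adjusted p = 0.0123) and CTSL by 0.33 (SE 0.0873; adjusted p = 0.00968). The CTSB call was lost without SR siCtrl replicate 1 (0.22) or siCOL6A3 + rhETP replicate 1 (0.19), and the CTSL call without the same libraries (0.31 and 0.32). Against siCOL6A3, CTSB was at 0.19 (edgeR adjusted p = 0.0541, DESeq2 adjusted p = 0.00556). With a minimum count of 50, edgeR called CTSB there as well (adjusted p = 0.0491). CTSL also rose in SR siCtrl against SS siCtrl by 0.27 (adjusted p = 0.0409), a call lost without any single library of these groups, at 0.25 to 0.31, and when these groups were fitted alone (adjusted p = 0.0848).

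TPP1, a tripeptidyl peptidase, was lowest with endotrophin. It had 132 and 127 CPM in siCOL6A3 + rhETP, 195 and 181 in siCOL6A3, 144 and 171 in SR siCtrl and 181 and 160.2 in SS siCtrl libraries. It fell in siCOL6A3 + rhETP against siCOL6A3 by 0.53 in log2 fold change (SE 0.0989; edgeR adjusted p = 0.00145). With siCOL6A3 against SR siCtrl it was at 0.25 and not called (edgeR adjusted p = 0.074), but was called at 0.40 without SR siCtrl replicate 2. It was also called there with DESeq2 (adjusted p = 0.0484), no filter (0.0215) and halved counts (0.0414). With endotrophin against SR siCtrl it was at -0.28 (edgeR adjusted p = 0.0529), and was called at -0.39 without SR siCtrl replicate 1. It was also called there with DESeq2 (adjusted p = 0.0336), no filter (0.0436), a minimum count of 50 (0.0399) and a replicate block (0.0478).

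Among the glycosidases, NEU1 stood out with endotrophin. NEU1, the lysosomal sialidase, lies on chromosome 6 from 31857659 to 31862821. It had 39.2 and 38.7 CPM in siCOL6A3 + rhETP, 71.2 and 86.7 in siCOL6A3, 89.2 and 85.6 in SR siCtrl and 77.7 and 101 in SS siCtrl libraries. The endotrophin libraries stood far below all others, which overlapped. NEU1 fell by 1.02 on the log2 scale against siCOL6A3 (SE 0.129; edgeR adjusted p = 2.11e-05) and by 1.17 against SR siCtrl (SE 0.13; adjusted p = 9.02e-07). With siCOL6A3 against SR siCtrl it was at -0.15 (95% interval -0.41 to 0.118). The gene length behind its FPKM was 26825 bases, against 4822 bases of exon in the GENCODE v29 annotation, while the other 30 genes had 0.199 to 1.70 times their annotated exon length. Its FPKM is therefore not compared with that of other genes. NEU1 lies in the MHC region, which the assembly also holds as alternate haplotypes, and how reads from these were counted is not stated, so the doubt extends to its counts and CPM.

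HEXA, the alpha subunit of the hexosaminidase that degrades gangliosides, had 74.2 and 84.1 CPM in siCOL6A3 + rhETP, 106 and 99.2 in siCOL6A3, 77.2 and 83.7 in SR siCtrl and 125 and 133 in SS siCtrl libraries. The endotrophin and SR siCtrl libraries overlapped at the low end, and the sensitive libraries were highest. HEXA fell in SR siCtrl against SS siCtrl by 0.68 in log2 fold change (SE 0.104; edgeR adjusted p = 5.94e-05). It rose with siCOL6A3 against SR siCtrl by 0.35 (SE 0.104; adjusted p = 0.0162) and fell with endotrophin against siCOL6A3 by 0.38 (SE 0.103; adjusted p = 0.0262). The rise was not called without SR siCtrl replicate 1 or siCOL6A3 replicate 1 (0.31 each), and the fall was not called without siCOL6A3 replicate 1 (-0.33) or siCOL6A3 + rhETP replicate 1 (-0.29).

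GAA, the acid alpha-glucosidase that degrades glycogen, differed between the cell populations. It had 77.0 and 79.4 CPM in siCOL6A3 + rhETP, 66.3 and 93.4 in siCOL6A3, 62.2 and 71.7 in SR siCtrl and 34.1 and 41.5 in SS siCtrl libraries. It rose in SR siCtrl against SS siCtrl by 0.83 (SE 0.144; edgeR adjusted p = 0.000267), the opposite direction to HEXA, and was called in no other comparison. With siCOL6A3 against SR siCtrl it was at 0.26, and was called at 0.49 without siCOL6A3 replicate 1. GLA, the alpha-galactosidase, and GUSB, the beta-glucuronidase, were called in no comparison with the settings used throughout. GLA had 21.0 to 35.2 CPM and GUSB 40.5 to 58.4 CPM over the 8 libraries. In SR siCtrl against SS siCtrl, GLA was called at 0.63 without SS siCtrl replicate 1 and GUSB at -0.46 without SS siCtrl replicate 2. GUSB was also called there with DESeq2 (adjusted p = 0.0485), a minimum count of 50 (0.0442) and halved counts (0.0452). In siCOL6A3 + rhETP against SR siCtrl, GLA was called at -0.68 without siCOL6A3 + rhETP replicate 2, with no filter (adjusted p = 0.0483) and when these groups were fitted alone (0.04).

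The lipid-handling genes LIPA, PSAP and NPC2 all rose with silencing. LIPA encodes lysosomal acid lipase, which frees cholesterol and fatty acids, and lies on chromosome 10 from 89213572 to 89414679. It had 268 and 269 CPM in siCOL6A3 + rhETP, 408 and 392 in siCOL6A3, 277 and 255 in SR siCtrl and 266 and 265 in SS siCtrl libraries. The siCOL6A3 libraries stood alone above a common level in the other 3 groups. LIPA rose with siCOL6A3 against SR siCtrl by 0.59 (SE 0.0759; edgeR adjusted p = 6.08e-06) and fell with endotrophin against siCOL6A3 by 0.58 on the log2 scale (SE 0.0758; adjusted p = 3.39e-05). With endotrophin against SR siCtrl it was at 0.01 (95% interval -0.145 to 0.17). Exons of LIPA overlap those of IFIT2 on the opposite strand, which had up to 2690 counts.

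PSAP, the precursor of the saposins that help lysosomal enzymes reach sphingolipids, rose and stayed high. It had 661 and 704 CPM in siCOL6A3 + rhETP, 701 and 745 in siCOL6A3, 479 and 472 in SR siCtrl and 523 and 539 in SS siCtrl libraries. All 4 silenced libraries lay above all control libraries. PSAP rose by 0.61 with siCOL6A3 (SE 0.0657; edgeR adjusted p = 6.41e-07) and by 0.52 with siCOL6A3 + rhETP (SE 0.0656; adjusted p = 4.76e-06), each against SR siCtrl. With endotrophin against siCOL6A3 it was at -0.08 (95% interval -0.219 to 0.0526).

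NPC2, the soluble cholesterol carrier that works with NPC1, had 33.4 and 41.2 CPM in siCOL6A3 + rhETP, 60.4 and 60.9 in siCOL6A3, 47.4 and 43.0 in SR siCtrl and 74.8 and 67.4 in SS siCtrl libraries. No library of any group overlapped with that of another. NPC2 fell in SR siCtrl against SS siCtrl by 0.65 in log2 fold change (SE 0.129; edgeR adjusted p = 0.000966) and with endotrophin against siCOL6A3 by 0.70 (SE 0.13; adjusted p = 0.00132). It rose with siCOL6A3 against SR siCtrl by 0.42 (SE 0.129; adjusted p = 0.0201), a call lost without SR siCtrl replicate 2 (0.38) or either siCOL6A3 library (0.44 each). With endotrophin against SR siCtrl it was at -0.28, which was not called. Exons of NPC2 overlap those of ISCA2 on the opposite strand (up to 977 counts).

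Of 3 genes of the V-ATPase, the proton pump that acidifies the lysosome, 1 was called in a comparison. ATP6V1H, a regulatory subunit of its cytosolic part, had 58.8 and 63.6 CPM in siCOL6A3 + rhETP, 71.5 and 83.1 in siCOL6A3, 60.2 and 58.3 in SR siCtrl and 77.3 and 67.0 in SS siCtrl libraries. It rose with siCOL6A3 against SR siCtrl by 0.38 (SE 0.118; edgeR adjusted p = 0.0218), a call lost without SR siCtrl replicate 1 (0.42) or 2 (0.38) or siCOL6A3 replicate 2 (0.29). ATP6V0D1, of the membrane part, and ATP6AP1, an accessory subunit, were called in no comparison. ATP6V0D1 had 72.9 to 99.6 CPM and ATP6AP1 96.8 to 137 CPM over the 8 libraries. DESeq2 alone called ATP6AP1 lower with endotrophin against siCOL6A3 (-0.29, adjusted p = 0.0249).

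Promoters of the set were searched for the core element CACGTG of the MiT/TFE factors, since many of these genes are known targets. Of the 31 genes, 25 had an entry in the RefSeq promoter table, which spans 250 bases before to 50 bases after a gene's start. UVRAG, LAMP2, CTSB, HEXA, PSAP and ATP6V1H had none. CACGTG, which reads the same on both strands, stood in 8 of the 25, or 32%, and in 7.43% of 27305 promoters. The longer TCACGTGA, which contains it, stood in 5 of the 25 (20%) and in 1.04% of all. TCATGTGA, on either strand, stood in GPNMB, CD63 and TPP1, and in 1.01% of all. These shares are given as a description, since a list that holds known targets may carry such elements more often by its making.

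Genes with and without these letters in the window searched rose with silencing. CTSA, CTSD and CD63 carried CACGTG and rose, whereas LAMP1, MCOLN1, GAA, NEU1 and ATP6V0D1 carried it and were not called in siCOL6A3 against SR siCtrl. MAP1LC3B, GABARAPL1, LIPA and NPC2 rose with no CACGTG in the window. SQSTM1, whose difference is given without a test, had none there either. For each gene only a single start was searched. For LIPA and SQSTM1 that start is the outer end of the gene's span, so CACGTG at any other start would be missed. The promoters of CTSA, which rose, LAMP1, which had 6 copies and was not called, and NEU1, which fell with endotrophin, are printed for comparison. CACGTG is in capitals. CTSA lies at chr20:45891085-45891384 on the plus strand, LAMP1 at chr13:113296989-113297288 on the plus strand, and NEU1 at chr6:31862772-31863071 on the minus strand (RefSeq, GRCh38.p14, each written 5′ to 3′ along its gene).
CTSA: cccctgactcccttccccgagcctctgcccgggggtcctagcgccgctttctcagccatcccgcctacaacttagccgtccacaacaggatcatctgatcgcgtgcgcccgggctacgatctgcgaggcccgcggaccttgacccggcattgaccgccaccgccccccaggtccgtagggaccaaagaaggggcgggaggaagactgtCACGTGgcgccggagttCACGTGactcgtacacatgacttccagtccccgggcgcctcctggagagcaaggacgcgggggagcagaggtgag
LAMP1: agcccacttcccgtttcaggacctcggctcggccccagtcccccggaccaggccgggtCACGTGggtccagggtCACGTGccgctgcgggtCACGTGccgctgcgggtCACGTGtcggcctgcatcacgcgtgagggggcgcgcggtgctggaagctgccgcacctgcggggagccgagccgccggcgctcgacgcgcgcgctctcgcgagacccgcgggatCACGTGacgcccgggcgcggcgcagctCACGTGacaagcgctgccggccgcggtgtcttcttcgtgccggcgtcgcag
NEU1: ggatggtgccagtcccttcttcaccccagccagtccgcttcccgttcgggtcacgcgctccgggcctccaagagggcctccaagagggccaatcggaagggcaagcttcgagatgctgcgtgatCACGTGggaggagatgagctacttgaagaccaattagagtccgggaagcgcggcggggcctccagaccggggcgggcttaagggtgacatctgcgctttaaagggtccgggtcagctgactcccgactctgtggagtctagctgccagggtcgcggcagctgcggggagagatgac

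Other genes of the same pathways were described from 8 further lists. In siCOL6A3 against SR siCtrl, 53 of the 187 genes tested rose and 11 fell, where 11.4% of all genes rose and 10.9% fell, with a median log2 fold change of 0.22. Of 20 other V-ATPase subunits 9 rose and 1 fell, with ATP6V1G1 at 0.67 (SE 0.109), ATP6V1D at 0.57 (SE 0.137) and ATP6V0E2 at -0.68 (SE 0.167). Of 29 lysosomal membrane proteins and transporters 10 rose and 2 fell. The sialic acid exporter SLC17A5 was at 1.42 (SE 0.212), the channel MCOLN3 at 1.37 (SE 0.292), the endolysosomal channel TPCN1 at -0.74 (SE 0.17) and the polyamine exporter ATP13A2 at -0.50 (SE 0.124). Of 37 hydrolases 8 rose and 3 fell, with CTSO at 1.85 (SE 0.231), NAGLU at 0.75 (SE 0.123) and GGH at -0.40 (SE 0.102).

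Of 26 genes of sorting and fusion at the lysosome 7 rose and 4 fell with siCOL6A3, and of 26 genes of MiT/TFE and mTORC1 control 9 rose and 0 fell. GNPTAB, which makes the mannose-6-phosphate tag on lysosomal enzymes, had 122 ± 0.643 CPM in siCOL6A3 and 56.8 ± 1.44 in SR siCtrl cells, at 1.10 (SE 0.102; edgeR adjusted p = 6.94e-08). STX17, the autophagosomal fusion protein, was at 1.43 (SE 0.18), SORT1 at -0.63 and GGA3 at -0.34. RRAGD, a Rag GTPase that recruits mTORC1 to the lysosome and a known MiT/TFE target, had 39.4 ± 0.811 CPM in siCOL6A3 and 18.0 ± 0.975 in SR siCtrl cells, at 1.13 (SE 0.159; adjusted p = 1.86e-05). SESN1, a p53-induced inhibitor of mTORC1, was at 1.05 (SE 0.169). FLCN, FNIP1 and FNIP2, which form the complex acting on RRAGD and were picked here after their values were seen, were at 0.45, 0.52 and 0.55, each called.

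Of 29 genes of autophagosome formation 5 rose and 1 fell with siCOL6A3, with ZFYVE1 at 0.86, VMP1 at 0.57 and ATG4C at -0.68. Of 15 selective autophagy receptors 4 rose and 0 fell, with OPTN at 0.89 (SE 0.0914) and BNIP3L at 0.65 (SE 0.102). Of the 5 further genes of the LC3 and GABARAP family that were tested, GABARAP rose, at 0.54 (SE 0.0882; edgeR adjusted p = 9.67e-05). These values are shares of lists of unequal size and are set against all genes in the plot of lists.

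**Figure D4:**
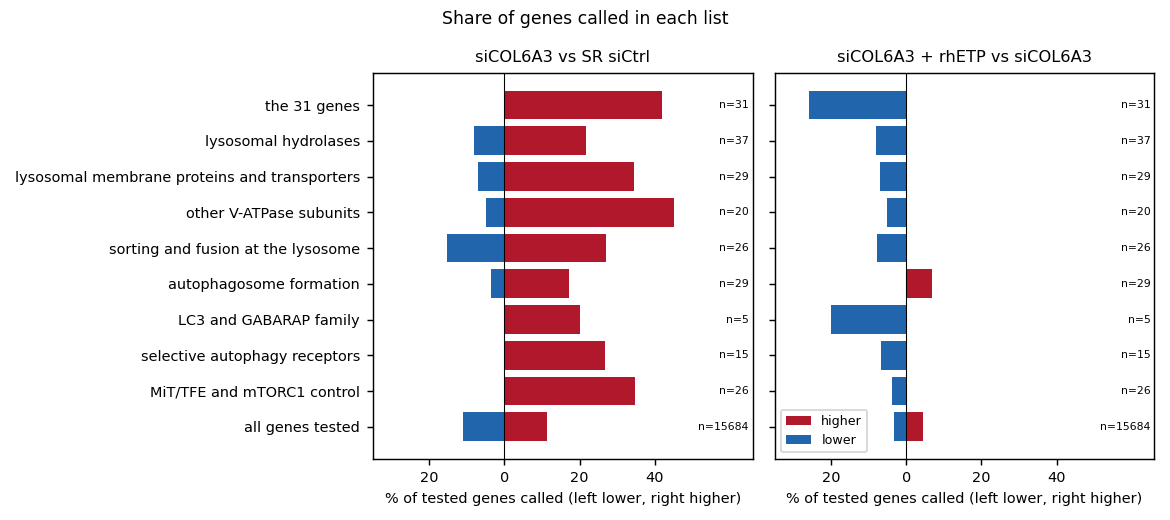
Share of tested genes called higher (red, to the right) and lower (blue, to the left) in the 31 genes, the 8 further lists and all genes tested, for siCOL6A3 against SR siCtrl and siCOL6A3 + rhETP against siCOL6A3, with the number tested at the right. With silencing 13 of the 31 genes and 9 of 20 other V-ATPase subunits were higher, against 11.4% of all genes. The bars for the 31 genes in both panels include GPNMB and SQSTM1, whose drop with endotrophin was known when the list was made.

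With siCOL6A3 + rhETP against siCOL6A3, 2 of the 187 genes rose and 11 fell, or 6.95% in all against 7.77% of all genes tested, where 4.41% rose and 3.36% fell. The median was -0.10. RRAGD had 19.0 ± 1.73 CPM in siCOL6A3 + rhETP and 39.4 ± 0.811 in siCOL6A3 cells, at -1.05 (SE 0.158; edgeR adjusted p = 0.00017). IGF2R, the mannose-6-phosphate receptor, had 147 ± 12.2 CPM in siCOL6A3 + rhETP and 231 ± 10.7 in siCOL6A3 cells, at -0.65 (SE 0.0933; adjusted p = 0.000104). Falls also took in OPTN (-0.45), GABARAP (-0.30), ATP6V0A2 (-0.84), OSTM1 (-0.62), CLCN7 (-0.49), VPS41 (-0.58), ASAH1 (-0.65) and NAGLU (-0.47). The rises were ULK1, the kinase that starts autophagy, at 0.50 (SE 0.14) and WDR45B at 0.33 (SE 0.0918).

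Against SR siCtrl, siCOL6A3 + rhETP cells had 30 of the 187 genes higher and 17 lower, where 10.1% of all genes were higher and 8.93% lower. RRAGD was at 0.08 (SE 0.159) and was not called. GNPTAB stayed higher, at 106 ± 3.81 CPM in siCOL6A3 + rhETP and 56.8 ± 1.44 in SR siCtrl cells (0.90, SE 0.101; edgeR adjusted p = 1.13e-06). CTSO (1.47), SLC17A5 (0.94), STX17 (0.92), SESN1 (0.97), FNIP1 (0.74) and BNIP3L (0.75) were also higher, and TPCN1 (-1.01), ATG4C (-1.14), SORT1 (-0.72), ATG2B (-0.65) and EPG5 (-0.48) lower.

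Between SR siCtrl and SS siCtrl, 13 of the 187 genes rose and 20 fell, with a median of -0.05, a share of 17.6% against 15.8% of all genes. Falls included genes near the detection limit in resistant cells. The hydrolase CTSH had 0.490 ± 0.692 CPM in SR siCtrl and 7.17 ± 1.17 in SS siCtrl cells, at -3.86 (SE 0.866), and the fusion protein VAMP8 had 0.680 ± 0.962 CPM in SR siCtrl and 7.65 ± 0.608 in SS siCtrl cells, at -3.49 (SE 0.965). Other falls included GGA2 (-1.41), MCOLN3 (-0.98), ATP6V1D (-0.87), BNIP3L (-0.62), RHEB (-0.58) and GABARAP (-0.49). Rises in the lists of these genes included AGA (0.76), ATP6V0A2 (0.50), GABARAPL2 (0.37) and LAPTM4B (0.27). The ganglioside activator GM2A had 297 ± 3.11 CPM in SR siCtrl and 168 ± 10.5 in SS siCtrl cells, at 0.82 (SE 0.084; edgeR adjusted p = 2.3e-07). ULK1 rose by 0.77 (SE 0.142), RPTOR by 0.38 and MTOR by 0.35.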

How the data were processed

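RNA-seq counts per gene, not normalized, and FPKM values were deposited by the authors as separate tables of the 8 libraries. The submitters' processing notes name GRCh38. Neither the labels nor the files name an aligner, a counting tool, an annotation or the strandedness. For 13505 genes the deposited FPKM equalled the count divided by a single gene length and the library total. A single unnamed entry (0 counts) was left out. Even numbers made up 72.8% to 77.6% of the counts from 1 to 20 and 49.6% to 50.9% of those from 500 up, so halved counts were tried in case reads and not pairs were counted.

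Counts were fitted in R 4.3.3 with edgeR 4.0.16 (limma 3.58.1), after filterByExpr (minimum count 10) and TMM scaling, with 1 coefficient per group over all 8 libraries and 4 residual degrees of freedom. Tests were 2-sided, with Benjamini-Hochberg adjustment over 15684 genes. The fit was checked on simulated counts. Intervals are 95% intervals of the log2 fold change. Floors cover counting error only. Alternatives were DESeq2 1.42.0, median-of-ratios scaling, no filter, a minimum count of 50, halved counts, a replicate block, a fit of the 2 groups compared and leaving out each library.

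The 31 genes and the 8 further lists were chosen with earlier results of these data known. All 31 genes are named. From each further list and comparison, up to 2 rises and 2 falls could be named. These were the largest among called genes of at least 5 CPM in a group whose libraries do not overlap between groups. Not every gene that meets this rule is named, so the named genes are examples. FLCN, FNIP1 and FNIP2 with silencing, and RRAGD in siCOL6A3 + rhETP against SR siCtrl, are named outside it. An item that this rule would name is not reported here. Promoters and positions are from RefSeq (GRCh38.p14), and exon overlaps from GENCODE v29.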

Additional observations from a re-analysis of the deposited data

How the results depend on the processing

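No value of the 31 genes changed its sign under any alternative where it, or the value under that alternative, was called. The numbers of the 31 genes called were 12, 13, 8 and 10 for SR siCtrl against SS siCtrl, siCOL6A3 against SR siCtrl, siCOL6A3 + rhETP against siCOL6A3, and siCOL6A3 + rhETP against SR siCtrl. Leaving out each library gave 7 to 12, 11 to 12, 6 to 7 and 6 to 8 in the same order of comparisons. The lowest values of the first and last came without SR siCtrl replicate 1. Over all genes tested, the calls were 2480, 3505, 1218 and 2981, and leaving out each library gave 1773 to 2442, 2469 to 2879, 651 to 934 and 1972 to 2484. The causes were not tested. In the other settings each of these counts stayed within 1.5 times, the widest being 12 of the 31 genes with DESeq2 in siCOL6A3 + rhETP against siCOL6A3. DESeq2 gave no adjusted p for GPNMB in siCOL6A3 + rhETP against siCOL6A3. GPNMB and SQSTM1, chosen with the siCOL6A3 values known, are among the 13 and the 8. Without them 11 and 6 of 29 genes were called. Both are also among the 12, and without them 10 of 29 genes were called there. The other counts of the set in this section were also made over all 31 genes, with these included.

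Of the called genes of the set, 7, 9, 6 and 3 kept their call under every alternative that gave a value. The replicate numbers did not pair the libraries: deviations of libraries with the same number correlated at -0.00989 to 0.0403 across genes. With the replicate block the calls among the 31 genes were 12, 13, 8 and 11, TPP1 in siCOL6A3 + rhETP against SR siCtrl being added (adjusted p = 0.0478), and over all genes 2606, 3618, 1368 and 3113. With 2 libraries a group and few counts, intervals were wide for the rare genes TFEB, MITF, WIPI1 and GPNMB.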
